A study of Mus musculus with 10 samples.

Results

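H2-M2, H2-M3, Cd1d1 and Mr1 encode cell surface proteins of the MHC class I fold that do not show ordinary peptides to ordinary T cells, and their RNA was followed here in cDC1s of the spleen, a dendritic cell type known for Xcr1, Clec9a and cross-presentation. They were taken as the listed genes with a probe set annotated to that gene alone. This held for 4 of the 5 genes listed, out of 19938 genes measured. The only probe set of the fifth, H2-T23 (Qa-1), also names H2-T-ps, so H2-T23 has no value here. The list was drawn up with these data in view, because H2-M2 and Cd1d1 differed between double knockouts and Zeb2 KO. Those comparisons are therefore given as values with no test.

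Total RNA was measured on 10 Affymetrix arrays: 2 Zeb2 Id2 DKO, 2 Nfil3 Zeb2 DKO, 3 Zeb2 KO and 3 WT. Both double knockouts carry the Zeb2 deletion, so each can be set against Zeb2 KO for the loss of the other gene and against WT for both losses together. Alleles, any Cre driver, age, the sorting gate and the number of mice are not stated in the labels. The p-values therefore measure only the spread between these samples, which may be technical.

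Classical class I molecules carry peptides to CD8 T cells, while their nonclassical relatives show narrower cargoes to specialised lymphocytes. H2-M3 binds formylated peptides of bacterial origin and Qa-1 is read by CD94 and NKG2 receptors. CD1d, the product of Cd1d1, carries lipids to NKT cells, and MR1 carries riboflavin-derived metabolites to MAIT cells. H2-M2 is a class I heavy chain gene in the M region of the mouse MHC, with no role given here. All of these heavy chains pair with beta-2 microglobulin as far as they are characterised.

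Promoters of H2-M2 and H2-M3 are shown, 2 heavy chain genes that lie on the same chromosome and had different patterns. The promoter of Cd1d1 was planned beside that of H2-M2, but no window for it was available. Each window runs from 250 bases before to 50 bases after the gene's start and comes from RefSeq (GRCm38.p6). H2-M2 lies at chr17:37483505-37483804 on the minus strand and H2-M3 at chr17:37269984-37270283 on the plus strand. Capitals mark every match to 3 motifs. The E-box bound by Zeb2 and E proteins was searched as CACCTG, which reads as its reverse complement on the opposite strand. The ATF-type box was searched as TGATGAC on both strands. The NF-Y box was searched as CCAAT on both strands, so that its reverse complement is also in capitals.
H2-M2 promoter: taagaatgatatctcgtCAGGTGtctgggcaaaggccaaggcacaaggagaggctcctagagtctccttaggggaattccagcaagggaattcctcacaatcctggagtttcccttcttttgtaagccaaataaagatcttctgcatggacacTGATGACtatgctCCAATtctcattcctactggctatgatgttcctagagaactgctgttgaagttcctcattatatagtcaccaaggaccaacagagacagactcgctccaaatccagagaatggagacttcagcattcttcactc
H2-M3 promoter: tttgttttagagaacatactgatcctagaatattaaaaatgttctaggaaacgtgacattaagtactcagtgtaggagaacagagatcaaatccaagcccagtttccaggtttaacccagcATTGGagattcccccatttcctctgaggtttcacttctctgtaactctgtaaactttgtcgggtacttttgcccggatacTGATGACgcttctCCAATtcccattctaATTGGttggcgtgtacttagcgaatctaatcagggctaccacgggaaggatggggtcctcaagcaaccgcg

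Both windows held TGATGAC followed after a gap of 6 bases by CCAAT. It began 97 bases before the start in H2-M2 and 49 bases before it in H2-M3. Of 32851 promoter windows in the table, 2 held that pair on either strand, and they were these 2. The pair was picked after both sequences had been read. Alone, TGATGAC stood in 3.23% of windows and CCAAT in 37.4%. H2-M2 had 1 E-box, 233 bases before the start, and H2-M3 had none. An E-box stood in 20.2% of all windows. Neither window held TTACGTAA, the palindrome bound by Nfil3 and related leucine zippers (0.119% of windows), nor GAAANNGAA, the core of interferon-stimulated response elements (8.56%). Windows of 3 of the 4 members were in the table, and that of Mr1 held none of the 5 motifs. These matches are letters in a window and no evidence of binding.

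Library identity was checked first. Id2 measured 5.01 and 4.98 log2 where Id2 was deleted, against 10.15, 10.32 and 10.43 in WT. Nfil3 measured 6.20 and 7.09 log2 where Nfil3 was deleted, against 9.98, 10.77 and 10.68 in WT. The Zeb2 probe set gave 6.78 and 6.82 log2 in arrays labelled Zeb2 Id2 DKO, 6.46 and 6.24 in those labelled Nfil3 Zeb2 DKO, 5.40 to 6.27 in those labelled Zeb2 KO and 5.93 to 6.30 in WT. It did not pass in any comparison with WT, and whether it lies in the deleted part is unknown, so the Zeb2 genotypes rest on the labels. Over 10 cDC1 markers the mean level lay between 11.45 and 11.61 log2 on all 10 arrays, and 1 of them, Cadm1, fell in Zeb2 Id2 DKO against WT. Zeb2 KO replicate 3 stood apart in its group: it correlated at 0.986 with both other Zeb2 KO arrays, which correlated at 0.996 with each other.

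H2-M2 was low without Zeb2 and lowest when Id2 was missing too, but stood at the WT level when Nfil3 was missing too. Its intensity was 90.0 and 92.6 in Zeb2 Id2 DKO, 333.5 and 264.0 in Nfil3 Zeb2 DKO, 108.3, 122.6 and 191.8 in Zeb2 KO, and 215.2, 377.7 and 281.4 in WT. All 5 arrays of Zeb2 Id2 DKO and Zeb2 KO lay below all 5 arrays of Nfil3 Zeb2 DKO and WT, as did those of 1.23% of all genes. The mean log2 levels were 6.51 ± 0.03 in Zeb2 Id2 DKO (SD, n = 2), 8.21 ± 0.24 in Nfil3 Zeb2 DKO (n = 2), 7.09 ± 0.43 in Zeb2 KO (n = 3) and 8.15 ± 0.41 in WT (n = 3). In ascending order the genotypes ran Zeb2 Id2 DKO, Zeb2 KO, WT, Nfil3 Zeb2 DKO. The probe set of deleted Nfil3 read 6.20 and 7.09 log2, so whether H2-M2 was above background in Zeb2 Id2 DKO is unknown. The Zeb2 Id2 DKO arrays did not overlap those of Zeb2 KO, and the arrays of Nfil3 Zeb2 DKO fell within the WT range. Arrays of Zeb2 Id2 DKO lay wholly below those of Nfil3 Zeb2 DKO for 29.5% of all genes.

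Cd1d1 showed the same grouping, again without overlap, with a smaller step. Intensities were 228.6 and 222.1 in Zeb2 Id2 DKO, 352.7 and 352.6 in Nfil3 Zeb2 DKO, 242.8, 262.4 and 191.9 in Zeb2 KO, and 353.5, 369.2 and 354.6 in WT. The lowest Nfil3 Zeb2 DKO array stood above the highest Zeb2 KO array, and Zeb2 Id2 DKO arrays lay inside the Zeb2 KO range. Mean log2 levels were 7.82 ± 0.03 in Zeb2 Id2 DKO (SD, n = 2), 8.46 ± 0.00 in Nfil3 Zeb2 DKO (n = 2), 7.85 ± 0.24 in Zeb2 KO (n = 3) and 8.49 ± 0.03 in WT (n = 3). Ascending, the order was Zeb2 Id2 DKO, Zeb2 KO, Nfil3 Zeb2 DKO, WT. The first pair overlapped. Both Nfil3 Zeb2 DKO arrays lay just below the lowest WT array, as for 10.7% of all genes. In bulk RNA, fewer cells with a transcript and less of it per cell cannot be told apart.

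**Figure D1:**
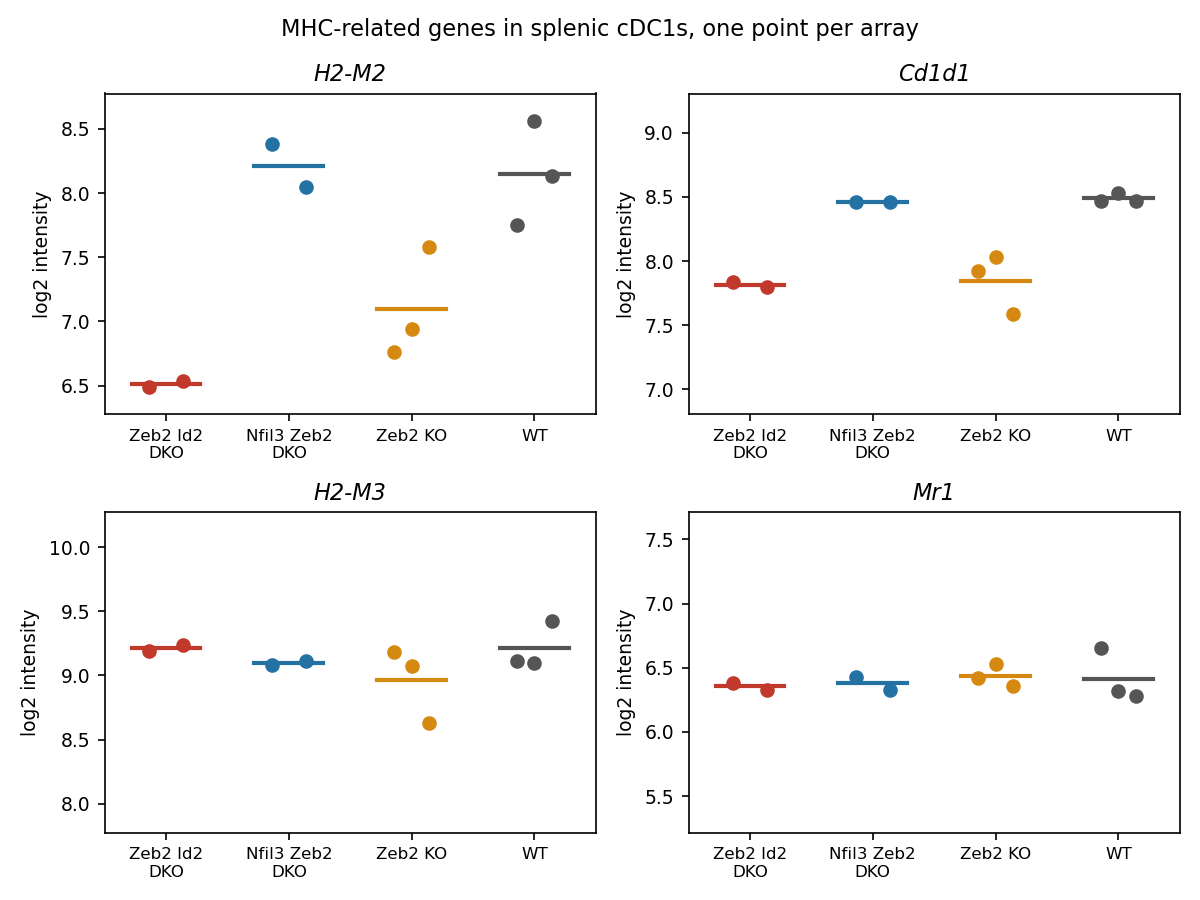
Each panel plots 1 gene's log2 intensity (y axis) by genotype (x axis), with a point per array and a bar at the genotype mean. All panels span the same 2.5 log2 units. H2-M2 and Cd1d1 are low in Zeb2 Id2 DKO and Zeb2 KO and near the WT level in Nfil3 Zeb2 DKO, while H2-M3 and Mr1 show no such grouping.

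H2-M3, the formyl peptide presenter, varied little between genotypes. It read 585.1 and 605.2 in Zeb2 Id2 DKO, 541.1 and 552.2 in Nfil3 Zeb2 DKO, 580.7, 539.9 and 395.1 in Zeb2 KO, and 553.7, 549.0 and 685.8 in WT. Zeb2 KO replicate 3 was the lowest array. The SD of the 4 genotype means was 0.12 log2, below the 0.20 log2 within genotypes. For H2-M2 these values were 0.83 and 0.36 log2, and for Cd1d1 0.37 and 0.14 log2.

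Mr1 was even across the 10 arrays. Its intensity was 83.6 and 80.3 in Zeb2 Id2 DKO, 86.2 and 80.3 in Nfil3 Zeb2 DKO, 85.5, 92.3 and 82.2 in Zeb2 KO, and 100.4, 79.9 and 77.6 in WT. The highest and the lowest array were both WT, 1.29-fold apart. No detection call accompanies the values, so whether Mr1 was above background is unknown. The highest array exceeded the lowest 4.20-fold for H2-M2, 1.92-fold for Cd1d1 and 1.74-fold for H2-M3.

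Against WT, 2 of the 4 members fell in Zeb2 Id2 DKO, H2-M2 and Cd1d1. Changes were tested with limma over all genes at a Benjamini-Hochberg adjusted p under 0.05. In this comparison 1.43% of all genes were called, 0.557% lower and 0.878% higher. Both members also had every Zeb2 Id2 DKO array below every WT array, as did 16.2% of all genes. H2-M2 fell 3.11-fold (log2 -1.64, 95% confidence interval -2.20 to -1.07, limma adjusted p = 0.0124), and Cd1d1 1.59-fold (log2 -0.67, -0.93 to -0.41, limma adjusted p = 0.0215). H2-M3 (log2 0.01, -0.34 to 0.35) and Mr1 (-0.06, -0.32 to 0.20) did not pass. These Zeb2 Id2 DKO arrays are also among those on which the list was chosen, so both calls are no independent evidence. The H2-M2 call was lost without WT replicate 3 (adjusted p = 0.0546) or Zeb2 Id2 DKO replicate 1 or 2 (0.114 and 0.120). That of Cd1d1 was lost without WT replicate 2 or 3 (0.0863 and 0.0765), without Zeb2 Id2 DKO replicate 1 or 2 (0.160 and 0.207), and with arrays centred on their medians (0.0535).

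Zeb2 KO alone gave values in the same direction against WT, which did not pass. Of 19938 genes 0.0201% were called, 0.00502% higher, and 0 of the 4 members (1474 genes had an unadjusted p under 0.05). H2-M2 had a log2 fold change of -1.06 (-1.56 to -0.55, limma adjusted p = 0.214, unadjusted p = 0.000862) and Cd1d1 one of -0.64 (-0.87 to -0.41, limma adjusted p = 0.120, unadjusted p = 0.000102). In both, every Zeb2 KO array lay below every WT array, as was true of 5.03% of all genes. H2-M3 had -0.25 (-0.56 to 0.06) and Mr1 0.02 (-0.21 to 0.25). Leaving out Zeb2 KO replicate 3, the array that stands apart, brought H2-M2 to -1.30 (limma adjusted p = 0.0169) and Cd1d1 to -0.51 (limma adjusted p = 0.0147). In that fit 165 of all genes were called, against 4 with every array. The list was chosen on shifts from these same Zeb2 KO arrays, so these p-values are no independent evidence. In that array H2-M2 was the highest of its group and Cd1d1 the lowest.

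Nfil3 Zeb2 DKO gave values near WT for all 4 members. H2-M2 had a log2 fold change of 0.06 (-0.50 to 0.63), Cd1d1 of -0.03 (-0.29 to 0.24), H2-M3 of -0.12 (-0.46 to 0.23) and Mr1 of -0.04 (-0.29 to 0.22). None passed, with 0.00502% of all genes called. The intervals still allow a fall of H2-M2 by 0.50 log2. For Cd1d1 the interval reaches down to -0.29 log2.

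**Figure D2:**
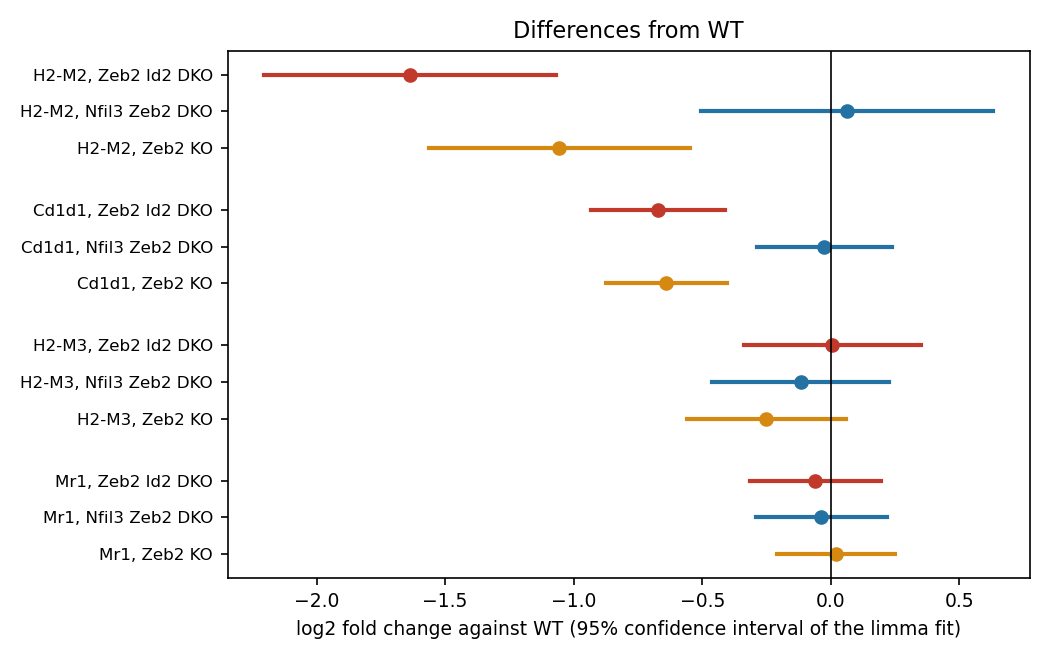
Points are log2 fold changes against WT (x axis) of the 4 members in Zeb2 Id2 DKO, Nfil3 Zeb2 DKO and Zeb2 KO, and bars are 95% confidence intervals. The intervals of H2-M2 and Cd1d1 lie below 0 in Zeb2 Id2 DKO and Zeb2 KO, and all others cross 0.

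Set against Zeb2 KO, the double knockouts differed in the way that led to the choice of these genes. In Nfil3 Zeb2 DKO, H2-M2 stood 1.12 log2 (2.17-fold) and Cd1d1 0.61 log2 (1.53-fold) above Zeb2 KO, with no overlap of arrays, as for 11.9% of all genes in that direction. In Zeb2 Id2 DKO, H2-M2 stood 0.58 log2 below Zeb2 KO and Cd1d1 differed by -0.03 log2. There the arrays of H2-M2 and H2-M3 did not overlap, as for 20.2% of all genes in either direction. H2-M3 differed by 0.13 log2 in Nfil3 Zeb2 DKO and 0.26 log2 in Zeb2 Id2 DKO, and Mr1 by -0.06 and -0.08 log2. Without Zeb2 KO replicate 3, H2-M2 stood 1.36 log2 above in Nfil3 Zeb2 DKO and differed by -0.34 log2 in Zeb2 Id2 DKO, and Cd1d1 stood 0.48 log2 above and differed by -0.16 log2. The Cd1d1 difference in Zeb2 Id2 DKO was 0.006 log2 without Zeb2 KO replicate 1 and 0.06 log2 without replicate 2. These comparisons share the Zeb2 KO arrays with each other.

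Cd1d2, the mouse paralog of Cd1d1 and next to it among measured genes on chromosome 3, had other values. Its mean log2 level was 6.45 ± 0.03 in Zeb2 Id2 DKO (SD, n = 2), 6.70 ± 0.01 in Nfil3 Zeb2 DKO (n = 2), 6.46 ± 0.17 in Zeb2 KO (n = 3) and 6.45 ± 0.11 in WT (n = 3). It stood 0.25 log2 above WT in Nfil3 Zeb2 DKO (limma unadjusted p = 0.0430, which did not pass after adjustment) and within 0.005 log2 of WT in the others.

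Genes that load and assemble these molecules gave no call: of 15 measured, 0 passed in any of the 6 comparisons. Of all genes, 0.00502% were called in Nfil3 Zeb2 DKO against Zeb2 KO, 0.497% in Zeb2 Id2 DKO against Zeb2 KO, and 0.792% in Zeb2 Id2 DKO against Nfil3 Zeb2 DKO, beside the shares against WT given above. Their log2 fold changes against WT had a median of 0.02 in Zeb2 Id2 DKO, with genes ranging from -0.17 to 0.13. The median was 0.01 in Nfil3 Zeb2 DKO, with a range of -0.19 to 0.07, and 0.04 in Zeb2 KO, with a range of -0.26 to 0.16. The median over all genes was -0.01 in Zeb2 Id2 DKO, 0.01 in Nfil3 Zeb2 DKO and 0.00 in Zeb2 KO. B2m, the shared light chain, had 0.01 (-0.26 to 0.28) in Zeb2 Id2 DKO, 0.02 (-0.25 to 0.28) in Nfil3 Zeb2 DKO, while Zeb2 KO had 0.07 (-0.17 to 0.31). Nlrc5, the transactivator of class I genes, had -0.01 (-0.40 to 0.38), 0.07 (-0.32 to 0.46) and -0.04 (-0.39 to 0.31) in that order. The largest differences of the list were those of the peptide transporter genes. Tap1 had 0.32 log2 between Zeb2 Id2 DKO and Nfil3 Zeb2 DKO, and Tap2 had 0.30 log2 between Zeb2 Id2 DKO and Zeb2 KO. Tap2 read 10.82 and 10.99 log2 in Zeb2 Id2 DKO and 10.93, 10.94 and 9.95 in Zeb2 KO, the last in replicate 3. The classical genes H2-K1, H2-D1 and H2-L had no probe set annotated to them alone.

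Other class Ib and MHC-like genes gave 0 calls among 22 measured of 34 listed. Procr, the protein C receptor of the same fold, had the lowest values, -0.55 log2 (-0.89 to -0.20, limma adjusted p = 0.154) in Zeb2 Id2 DKO and -0.48 (-0.78 to -0.17, limma adjusted p = 0.405) in Zeb2 KO. H2-T24, a class Ib gene of the T region, had 0.28 log2 in Zeb2 Id2 DKO, -0.17 in Nfil3 Zeb2 DKO and -0.11 in Zeb2 KO. H2-M5, H2-M9, H2-M11, H2-M1 and the 6 H2-M10 genes measured, relatives of H2-M2 and H2-M3 in the M region, were uncalled throughout. Many were dim: H2-M1, H2-M11, H2-M10.1, H2-M10.5 and H2-M10.6 read below the 4.98 log2 of deleted Id2 on every array. H2-M5, H2-M9, H2-M10.2 and H2-M10.3 read above it on every array, and H2-M10.4 lay on both sides. Whether the dim genes were expressed is unknown, so a lack of calls there says little.

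Lipid loading and trafficking genes of the CD1d route gave 0 calls among 22 measured. Differences from WT spanned -0.34 to 0.30 log2 with Id2 missing too, -0.33 to 0.34 with Nfil3 missing too and -0.45 to 0.21 in Zeb2 KO. Ctss, a lysosomal protease, had the value of -0.45 in Zeb2 KO (-0.96 to 0.06) with an SD of 0.60 log2 there. Apoe, which carries lipids into cells, had 0.47 log2 in Zeb2 Id2 DKO against Zeb2 KO (limma adjusted p = 0.774).

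Among 16 regulators of class I or CD1d genes, 0 were called. Irf1, an interferon-responsive activator of class I genes, had -0.64 log2 (-1.11 to -0.18, limma adjusted p = 0.238) in Zeb2 Id2 DKO, and Rara, a retinoic acid receptor, 0.56 (0.21 to 0.90, limma adjusted p = 0.152). Receptors on T and NK cells for these molecules, 12 measured, also gave 0 calls. Klrd1, which encodes CD94, had 1.14 log2 in Zeb2 Id2 DKO against Zeb2 KO (limma adjusted p = 0.121), and Klrk1, which encodes NKG2D, 0.74 log2 in Zeb2 Id2 DKO against Nfil3 Zeb2 DKO (limma adjusted p = 0.575). Over all 85 pathway genes, limma called 0 in each of the 6 comparisons, and at an unadjusted p under 0.05 there were 8 in Zeb2 Id2 DKO, 3 in Nfil3 Zeb2 DKO and 6 in Zeb2 KO against WT. Of all 19938 genes, 2028, 829 and 1474 were under that threshold in the same order.

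**Figure D3:**
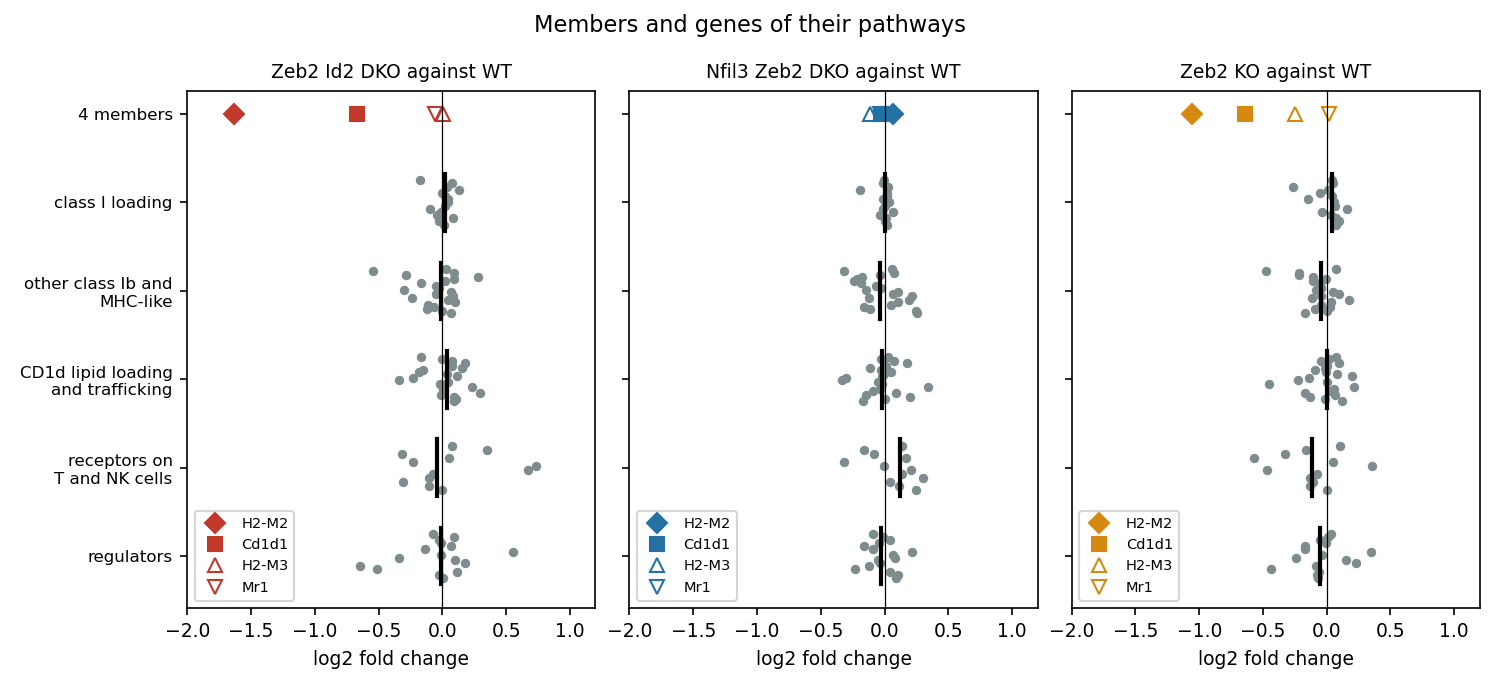
Symbols on the top line are the 4 members, grey points are genes of 5 lists and black bars are list medians, all as log2 fold change against WT (x axis) in Zeb2 Id2 DKO, Nfil3 Zeb2 DKO and Zeb2 KO. H2-M2 and Cd1d1 lie to the left of all 85 pathway genes in Zeb2 Id2 DKO and Zeb2 KO. Both were chosen for shifts on these same arrays, so their place is no independent evidence.

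The genes whose values most resembled H2-M2 over the 10 arrays were Lad1, Hpgd, Gclc, Vcam1 and Mreg. Each gene was centred on its own mean, and the root mean square difference from H2-M2 was 0.16 log2 for Lad1, 0.27 for Hpgd, 0.30 for Gclc, 0.31 for Vcam1 and 0.34 for Mreg, among 16489 genes compared. H2-M2 itself varied by 0.74 log2 about its mean. Lad1 encodes ladinin, a basement membrane protein, and averaged 6.59 in Zeb2 Id2 DKO, 8.14 in Nfil3 Zeb2 DKO, 7.26 in Zeb2 KO and 8.12 log2 in WT. Gclc, needed for making glutathione, averaged 9.09, 10.81, 10.05 and 10.92 log2 in that order. In Zeb2 KO replicate 3, Gclc (10.95), Lad1 (7.89), Mreg (7.71), Vcam1 (7.49) and Hpgd (7.17) were the highest of their group, as H2-M2 was.

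Hpgd and Vcam1 are also markers of red pulp macrophages. Over the 10 genes of that list the mean level was 5.99 and 6.10 log2 in Zeb2 Id2 DKO, 6.36 and 6.28 in Nfil3 Zeb2 DKO, 5.95, 5.99 and 6.45 in Zeb2 KO (the last in replicate 3), and 6.20, 6.50 and 6.52 in WT. Of the list 2 of 10 fell in Zeb2 Id2 DKO against WT, Hpgd and Vcam1, with a list median of -0.11 log2. In that comparison 4 of the 10 had positive log2 fold changes, and 0.557% of all genes were called lower. The part of macrophage RNA in the H2-M2 values was not tested.

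Cd1d1 was most like Nlrp1b (root mean square difference 0.14 log2), Il6st (0.15), Cd8a (0.15), Malt1 (0.15) and Selplg (0.16), and varied by 0.34 log2 about its own mean. Nlrp1b is an inflammasome sensor, Il6st encodes the gp130 receptor chain, and Cd8a marks splenic cDC1s. Cd8a averaged 10.26 in Zeb2 Id2 DKO, 10.87 in Nfil3 Zeb2 DKO, 10.36 in Zeb2 KO and 10.77 log2 in WT. In Zeb2 KO replicate 3 each of these 5 genes was the lowest of its group, as Cd1d1 was. These likenesses are over 10 arrays of 4 genotypes and include each array's own deviation.

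**Figure D4:**
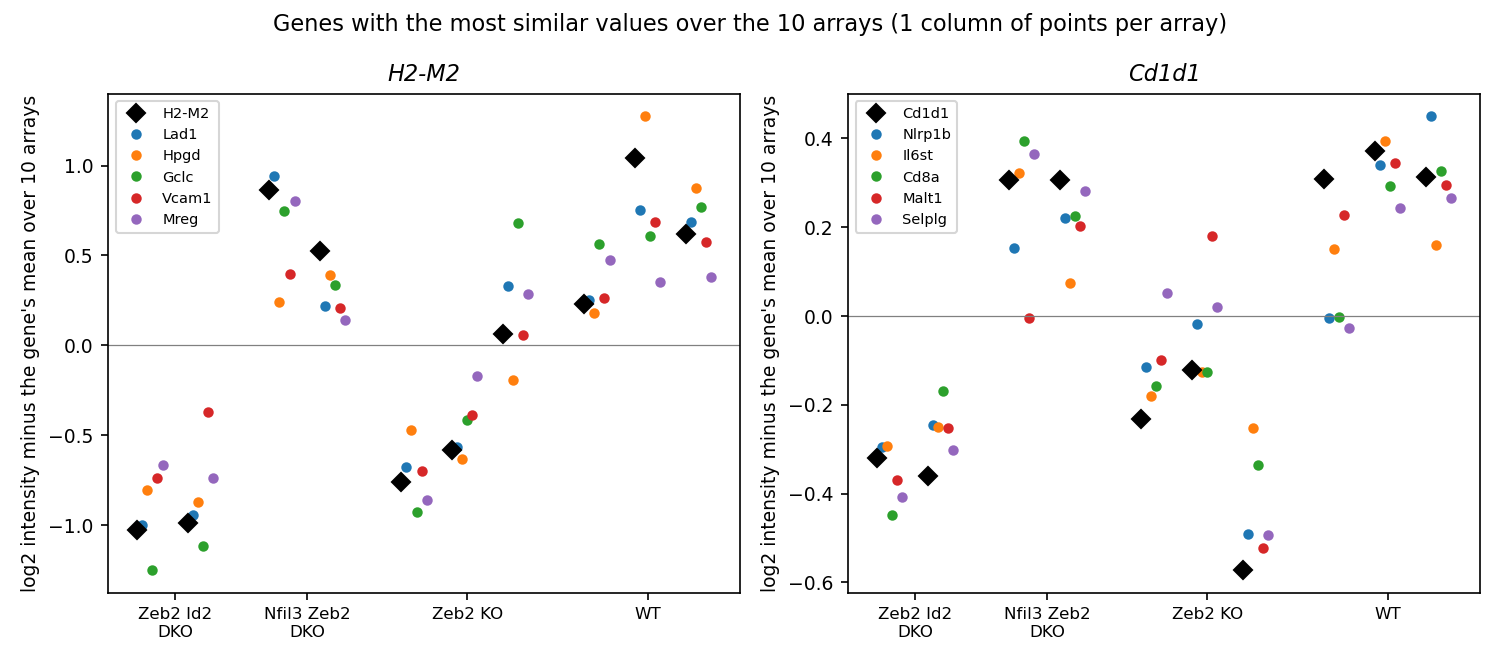
Each column of points is 1 array, grouped by genotype on the x axis, and the y axis is log2 intensity minus the gene's mean over the 10 arrays. Black diamonds are H2-M2 (left) and Cd1d1 (right), and coloured points are the 5 genes most like each. In the third Zeb2 KO column the H2-M2 group is high and the Cd1d1 group low.

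Markers of other cells differed between genotypes along with H2-M2 and Cd1d1. Mean levels over 10 neutrophil genes were 8.54 and 9.85 log2 in Zeb2 Id2 DKO, 7.60 and 8.27 in Nfil3 Zeb2 DKO, 9.76, 8.79 and 8.96 in Zeb2 KO, and 7.14, 6.92 and 7.22 in WT. Of the 10 genes 7 rose in Zeb2 Id2 DKO against WT, 0 in Nfil3 Zeb2 DKO and 1, Ngp, in Zeb2 KO. The shares of all genes called in either direction were 1.43%, 0.00502% and 0.0201% in that order. All 10 neutrophil genes had positive log2 fold changes in each genotype, with medians of 2.51, 1.07 and 2.47 in the same order. Over 9 B cell genes, which include markers of marginal zone B cells, a known site of CD1d, the level was 6.65 and 6.72 in Zeb2 Id2 DKO, 6.60 and 6.51 in Nfil3 Zeb2 DKO, 6.35, 7.37 and 6.23 in Zeb2 KO, and 7.91, 6.67 and 6.70 in WT, and 0 of them were called against WT. Over 8 T cell genes it was 6.35 and 6.36 in Zeb2 Id2 DKO, 7.03 and 6.92 in Nfil3 Zeb2 DKO, 6.49, 6.56 and 6.67 in Zeb2 KO, and 6.66, 6.87 and 6.89 in WT, and 3 of 8 (Cd3d, Cd3g and Lat) fell in Zeb2 Id2 DKO. Interferon-stimulated genes stood at 8.48 and 9.01 in Zeb2 Id2 DKO and between 7.27 and 7.61 in all other arrays, and 9 of 13 rose in Zeb2 Id2 DKO against WT. Over 9 erythroid genes the level was 7.68 and 7.45 in Zeb2 Id2 DKO, 6.04 and 6.79 in Nfil3 Zeb2 DKO, 7.004, 7.190 and 7.094 in Zeb2 KO, and 6.94, 6.85 and 6.40 in WT. Erythroid and neutrophil levels were thus both higher on all 5 arrays where H2-M2 and Cd1d1 were low than on the other 5. The share of all genes that were higher in this way was not counted. Of the 9 erythroid genes 2, Hemgn and Car2, rose in Zeb2 Id2 DKO against WT. Over 9 genes of plasmacytoid dendritic cells the level was 8.42 and 8.30 in Zeb2 Id2 DKO and between 7.55 and 7.89 in all other arrays, and 4 of 9 rose in Zeb2 Id2 DKO against WT. Over 10 cDC2 genes it was 6.58 and 6.72 in Zeb2 Id2 DKO, 6.91 and 6.70 in Nfil3 Zeb2 DKO, 6.40, 6.52 and 6.50 in Zeb2 KO, and 6.75, 6.95 and 6.98 in WT, and Rtn1 fell in both Zeb2 Id2 DKO and Zeb2 KO against WT. Over 8 monocyte genes all arrays lay between 7.34 and 7.72, with 1 gene, Ms4a6c, higher in Zeb2 Id2 DKO against WT. Over 10 NK cell genes they lay between 5.50 and 6.01, with 1 gene, Il2rb, lower there. The part of RNA from these cells, or of interferon-stimulated genes, in the H2-M2 and Cd1d1 values was not tested.

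**Figure D5:**
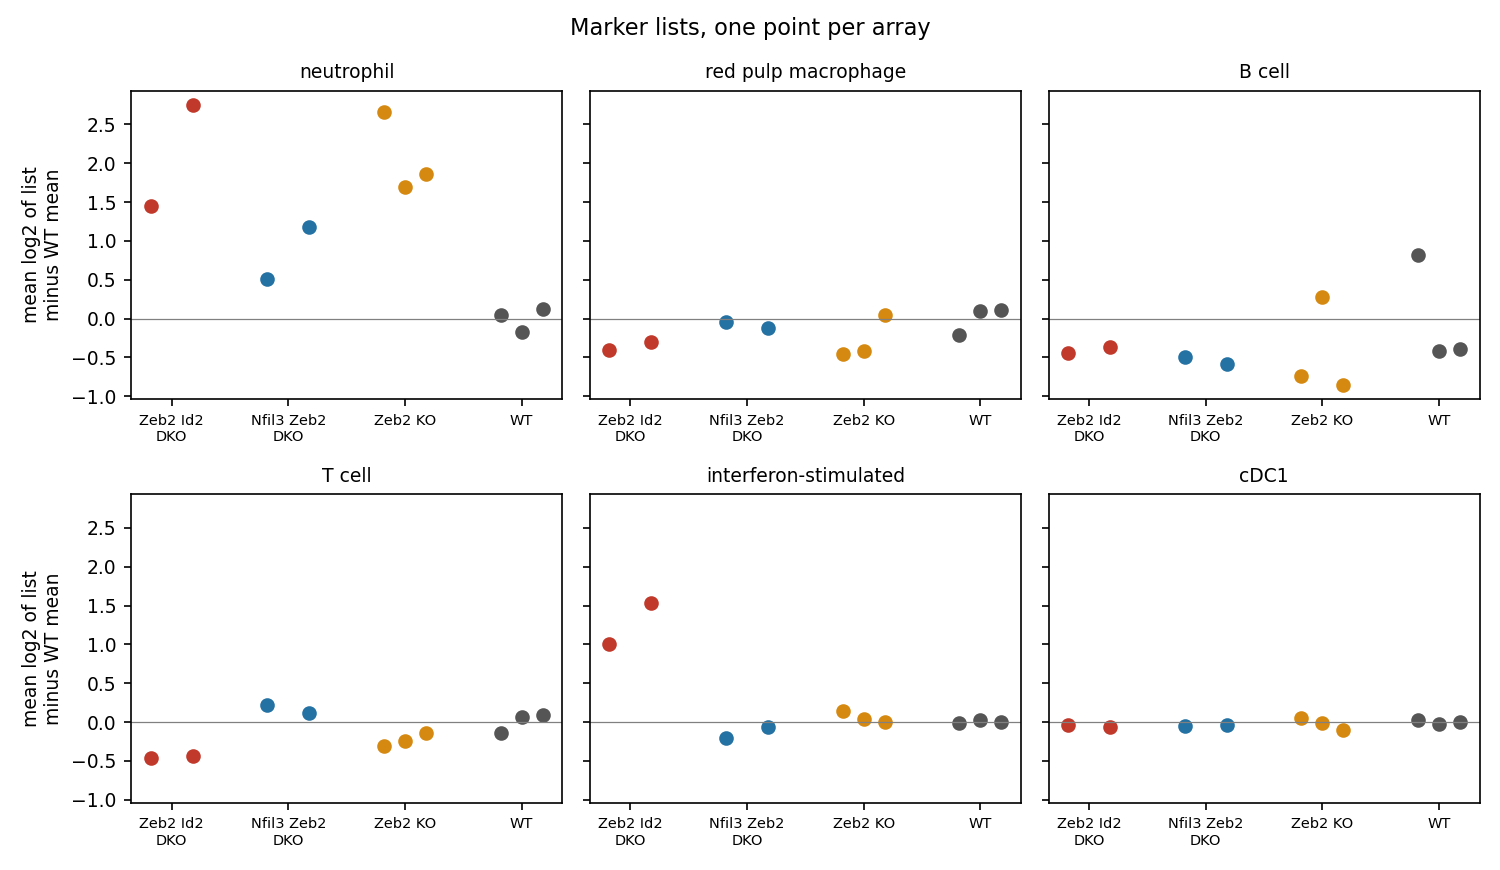
Each point is 1 array's mean log2 level over a marker list minus the WT mean of that list (y axis), by genotype (x axis). Neutrophil genes are high in Zeb2 Id2 DKO and Zeb2 KO and less so in Nfil3 Zeb2 DKO. Interferon-stimulated genes are high in Zeb2 Id2 DKO, and cDC1 genes lie near 0.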

How the data were processed

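RNA of 10 arrays was analysed from the deposited table of intensities, which per the submitters' processing notes the authors made in Affymetrix Expression Console with RMA. The values are linear (5.05 to 16019), and log2 was taken here. Of 28853 probe sets, 21789 named 1 gene, 1621 several and 5443 none, by the platform annotation. For the 999 genes with several probe sets, the one with the highest mean was used, and each member had a single one. limma 3.58.1 in R 4.3.3 fitted a mean per genotype to all 10 arrays (6 residual degrees of freedom, prior 4.47). P-values were adjusted by Benjamini-Hochberg over 19938 genes within each of 6 comparisons. The fit was tested on simulated data with independent noise, which held no outlying array like Zeb2 KO replicate 3. Brackets after a gene's log2 fold change hold its 95% confidence interval, and the number of arrays limits precision: the median interval reached 0.22 to 0.26 log2 to either side. Scanner files, and with them detection calls and scan batches, were not used here.

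Members and gene lists were chosen with earlier results of these data known. For the members, the comparisons of both double knockouts with Zeb2 KO, and with each other, are described with no test; pathway genes were tested in all 6. Named genes were the members, the targeted genes, B2m, Nlrc5 and Cd1d2, called or largest-difference members of each list, and the 5 genes most like H2-M2 and Cd1d1. The search for like genes skipped predicted genes, small non-coding RNAs, receptor segments, olfactory receptors and genes on sex chromosomes. The ATF-type and NF-Y boxes and their pair were added after the sequences were read. The genome build and annotation release behind the array values are not given in the sources used here, and promoter windows are on the build of the RefSeq table.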

Additional observations from a re-analysis of the deposited data

Results flagged for a closer look

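For 2 members every array of Zeb2 Id2 DKO lay below the Zeb2 KO mean and every array of Nfil3 Zeb2 DKO above it. The share of all genes with arrays on opposite sides of that mean was not counted. For H2-M2 the shift was -0.58 log2 in Zeb2 Id2 DKO and 1.12 log2 in Nfil3 Zeb2 DKO, a difference of -1.70 log2. For Cd1d1 the shifts were -0.03 and 0.61 log2, a difference of -0.65 log2, and the Zeb2 Id2 DKO arrays lay inside the range of the Zeb2 KO arrays. The Cd1d1 shift in Zeb2 Id2 DKO had the opposite sign without Zeb2 KO replicate 1 (0.006 log2) or replicate 2 (0.06 log2). Its side of the Zeb2 KO mean is therefore not settled. The differences were not tested, because these comparisons led to the choice of both genes.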

How the results depend on the processing

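Each value was recomputed under 18 alternatives, 10 of which leave out 1 array, and a genotype left with 1 array was assumed to vary like the others. H2-M2 and Cd1d1 kept their direction in all 18 for Zeb2 Id2 DKO and Zeb2 KO against WT. With an array left out, H2-M2 ran from -1.84 to -1.43 log2 in Zeb2 Id2 DKO, from -0.14 to 0.27 in Nfil3 Zeb2 DKO and from -1.30 to -0.85 in Zeb2 KO, and its adjusted p from 0.00104 to 0.120 in Zeb2 Id2 DKO and 0.0169 to 0.743 in Zeb2 KO. Cd1d1 ran from -0.69 to -0.65 in Zeb2 Id2 DKO and from -0.73 to -0.51 in Zeb2 KO, with adjusted p from 0.000558 to 0.207 and from 0.0147 to 0.447. The cause of these changes was not tested. Mr1 ran from -0.050 to 0.14 in Zeb2 KO, from -0.11 to 0.080 in Nfil3 Zeb2 DKO and from -0.13 to 0.057 in Zeb2 Id2 DKO, and H2-M3 from -0.050 to 0.11 in Zeb2 Id2 DKO.

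Quantile normalization gave Cd1d1 0.010 in Nfil3 Zeb2 DKO and H2-M3 -0.031 in Zeb2 Id2 DKO. Centring on medians gave Cd1d1 -0.65 in Zeb2 Id2 DKO against WT (adjusted p = 0.0535). Between Zeb2 Id2 DKO and Nfil3 Zeb2 DKO, Cd1d1 differed by -0.71 with quantile normalization, -0.60 with centring and -0.61 with a pseudocount of 16.

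Genes called with an array left out ran from 0 to 165 for Zeb2 KO against WT, 1 to 7 for Nfil3 Zeb2 DKO against WT, 67 to 760 for Zeb2 Id2 DKO against WT, 1 to 106 for Nfil3 Zeb2 DKO against Zeb2 KO, 25 to 148 for Zeb2 Id2 DKO against Zeb2 KO, and 23 to 704 between the double knockouts. Each highest count came without Zeb2 KO replicate 3, and that of 7 also without Nfil3 Zeb2 DKO replicate 2. With all choices as reported these counts were 4, 1, 286, 1, 99 and 158. Only the arrays of both genotypes gave 1, 2, 554, 20 and 833 in place of 4, 1, 286, 99 and 158. For Zeb2 KO against WT, limma called 0 after centring and 0 with the pseudocount (1474 genes at an unadjusted p under 0.05 as reported).

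With the replicate block the count was 8 for Zeb2 KO against WT and 183 for Zeb2 Id2 DKO against WT, H2-M2 and Cd1d1 kept their calls, and H2-M3 was -0.026 in Zeb2 Id2 DKO against WT. Deviations of same-numbered arrays from their genotype means correlated at -0.31 to 0.16. With 2 or 3 arrays per genotype and no comparison of differently numbered arrays, these values cannot settle whether replicate numbers pair the samples.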

Other observations

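H2-M2 lies on chromosome 17 among olfactory receptor genes. The 3 measured genes on either side of it differed from WT by -0.23 to 0.15 log2 with Id2 missing too, -0.03 to 0.07 with Nfil3 missing too and -0.22 to 0.05 in Zeb2 KO. The 6 measured neighbours of Cd1d1 on chromosome 3, Cd1d2 among them, differed from WT by -0.31 to 0.10, -0.06 to 0.25 and -0.07 to 0.15 log2 in the same order. These neighbours were looked up after the values of H2-M2 and Cd1d1 had been seen.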
